A study of Homo sapiens with 12 samples.

Results

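The miR-26 family consists here of 5 mature human miRNAs, taken by name from the rows of the count table: hsa-miR-26a-5p, hsa-miR-26b-5p, hsa-miR-26a-1-3p, hsa-miR-26a-2-3p and hsa-miR-26b-3p (hsa, for human, is left out from here on). They are 5 of the 2588 mature miRNAs listed, and all 5 were detected. The samples are 12 small RNA libraries from MDA-MB-231, a human triple-negative breast cancer cell line, and from the extracellular vesicles (EVs) that its cells released, with 2 libraries in each of 6 groups. The control line carried an empty lentiviral vector, the RAB27A knockdown (KD) line stably expressed a short hairpin RNA against RAB27A, a small GTPase needed for multivesicular bodies to dock and release exosomes, and the miR-122 knockout (KO) line had the gene of miR-122, a hepatocyte miRNA, edited with CRISPR-Cas9 and 2 guide RNAs. Each line gave a group of cells and a group of EVs. All lines were grown with 10% fetal bovine serum and then without serum, with 1% bovine serum albumin, for 24 h. The EVs were pelleted from that medium by ultracentrifugation and the same cells were harvested. Each modification is represented by 1 line, and the labels do not say whether the knockout line is a single clone or whether it carries the empty vector. The labels number the replicates but do not call them separate cultures, so the spread behind each p-value may be technical.

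miRNAs are made from hairpin precursors, and each hairpin can give a 5p and a 3p arm. Usually 1 arm, the guide, is kept in Argonaute and represses mRNAs that match its seed, while the other arm, the passenger, is mostly degraded. In the miR-26 family the 5p arms are the guides. miR-26a and miR-26b are broadly expressed, are lowered by the oncogene MYC, and are known for repressing EZH2, the catalytic subunit of the Polycomb repressive complex that methylates histone H3 at lysine K27. They lie inside genes of small phosphatases that act on RNA polymerase II.

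The mature sequences explain which reads can be told apart. They are given 5′ to 3′ from RefSeq (GRCh38.p14), where 5 of 5 members were matched, with the seed (bases 2 to 8) in capitals.
miR-26a-5p: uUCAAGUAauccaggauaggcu
miR-26b-5p: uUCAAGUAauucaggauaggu
miR-26a-1-3p: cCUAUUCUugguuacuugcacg
miR-26a-2-3p: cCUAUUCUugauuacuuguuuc
miR-26b-3p: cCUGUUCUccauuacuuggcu
The guides share the seed UCAAGUA. Counted from 1 at the 5′ end and with miR-26a-5p as the reference, they differ at C11U and C21U among the 21 positions compared, and miR-26a-5p is 22 bases long against 21. How reads that fit several miRNAs were assigned is not given in the sources used here, so reads of the 2 guides may have been shared. The passengers of both miR-26a hairpins share the seed CUAUUCU and differ from each other at 5 of 22 positions (G11A, C19U, A20U, C21U and G22C, with miR-26a-1-3p as the reference). miR-26b-3p has a seed of its own.

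Other miRNAs with the guide seed are miR-1297 and miR-4465. They are shown because the leading 15 bases of the first are those of miR-26b-5p, after which the 2 differ at A16U and U17G. A read of the miR-26b guide could be assigned to it only if cut to those bases or matched with mismatches.
miR-1297: uUCAAGUAauucaggug
miR-4465: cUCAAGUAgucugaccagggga
Neither had a count in any of the 12 libraries, which allows up to 0.131 CPM in control cells and up to 8.95 CPM in KD EVs, from 3 counts over the summed total of the group. CPM is a count scaled to a common library total. It is a share of the library and not an amount. In these bulk samples, fewer cells or vesicles with a miRNA and less of it in each cannot be told apart.

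The hairpins are shown with the mature arms in capitals, because they decide which locus a count can be traced to.
MIR26A1: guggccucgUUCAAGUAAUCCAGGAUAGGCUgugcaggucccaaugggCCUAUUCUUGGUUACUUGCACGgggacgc
MIR26A2: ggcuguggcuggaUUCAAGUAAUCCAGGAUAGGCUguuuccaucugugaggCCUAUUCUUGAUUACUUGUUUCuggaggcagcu
MIR26B: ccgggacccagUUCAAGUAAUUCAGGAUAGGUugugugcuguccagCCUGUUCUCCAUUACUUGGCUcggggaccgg
In GRCh38, MIR26A1 lies on the plus strand of chromosome 3 (37969404 to 37969480) within CTDSPL, MIR26A2 on the minus strand of chromosome 12 (57824609 to 57824692) within CTDSP2, and MIR26B on the plus strand of chromosome 2 (218402646 to 218402722) within CTDSP1. By GENCODE release 29 each has the strand of its host gene and overlaps none of its exons, so each is intronic. MIR26A1 and MIR26A2 give the same guide, so counts of miR-26a-5p cannot be assigned to a locus, whereas the 3p arms can.

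Total counts ran from 164656 to 11840597 per library, and the KD EV libraries were the shallowest, with 1 count worth 5.87 to 6.07 CPM. Replicates of each group differed by more than counting noise (chi-square per degree of freedom 8.75 to 211). The KO cells stood far above the rest, at 211, with control cells next at 31.8. miR-122-5p, the target of the edit, had no count in the KO cells and 4 and 3 counts in the KO EVs. Control cells had 5 and 4, KD cells 39 and 40, KD EVs 7 and 5 and control EVs 790 and 651. These are raw counts at unlike depths, so their order is not the order of levels. Beside the KD EVs, 1 count was worth 0.317 and 0.318 CPM in KD cells. It was worth 0.0845 and 0.0904 CPM in control cells and 0.419 and 0.385 CPM in control EVs. RAB27A is protein-coding and was not measured. Markers of other cells were concentrated in the control EVs. The 4 erythroid miRNAs summed to 8090 to 9500 CPM there and to 96.9 to 274 CPM in the other 5 groups. The 4 leukocyte miRNAs summed to 1780 to 2000 CPM there and to 1.08 to 35.2 CPM elsewhere, with miR-223-3p at 0 in all 3 groups of cells and in KD EVs. The 7 stromal and endothelial miRNAs summed to 5960 to 6150 CPM there and to 31.6 to 387 CPM elsewhere, with miR-145-5p, miR-199a-3p and miR-214-3p at 0 in KD EVs. The part of these markers' source in the EV values of miR-26 was not tested.

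The guides were among the abundant miRNAs of every group. miR-26a-5p held 33492 and 33430 CPM in control cells, 24563 and 24007 in KD cells and 10452 and 9569 in KO cells. In EVs it held 42035 and 45822 CPM in the control line, 36318 and 27124 in the KD line and 33527 and 33827 in the KO line. It therefore stood highest in control EVs and lowest in KO cells, and it ranked 4 to 7 in 10 libraries but 12 and 13 in the KO cells. In the order of group means, control EVs were followed by KO EVs, control cells and KD EVs, which lay close together. The lowest KO EV library, at 33527 CPM, lay just above the highest control cell library, at 33492 CPM, and control cells and KD EVs overlapped. KD cells and KO cells followed without overlap.

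miR-26b-5p was less counted than miR-26a-5p in every library and spread over a wider range. It held 6931 and 7939 CPM in control cells, 3800 and 4204 in KD cells and only 1224 and 1260 in KO cells. In EVs it held 16473 and 14281 CPM in the control line, 3990 and 5318 in the KD line and 11380 and 10816 in the KO line. The order of groups was that of miR-26a-5p, and only KD EVs and KD cells, neighbours in it, overlapped. Both guides together made up 5.93% ± 0.113 of the counts in control EVs and 1.12% ± 0.0598 in KO cells (SD, n = 2 each).

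The passengers were rare. In control cells miR-26a-2-3p held 46.1 and 64.9 CPM, miR-26b-3p 31.2 and 37.1 CPM and miR-26a-1-3p 17.1 and 19.9 CPM. In KD cells these were 16.8 and 11.1, 6.96 and 7.01, and 4.43 and 6.37 CPM, and in KO cells 4.62 and 8.64, 25.3 and 25.8, and 1.87 and 4.78 CPM. Among groups where they were seen, miR-26a-2-3p was thus lowest in KO cells and miR-26b-3p in KD cells, while KO and KD cells overlapped for miR-26a-1-3p. In control EVs miR-26a-2-3p held 66.2 and 66.6 CPM, miR-26b-3p 28.5 and 27.7 CPM and miR-26a-1-3p 20.5 and 18.1 CPM, and in KO EVs 76.7 and 63.5, 26.9 and 25.9, and 16.8 and 20.8 CPM. Control cells, control EVs and KO EVs overlapped for miR-26a-1-3p, and KO EVs overlapped both other groups for miR-26a-2-3p. None of the 3 had a count in either KD EV library, where 3 counts over the group equal 8.95 CPM. Of the miR-26a passengers, the product of MIR26A2 made up 75% of the counts in control cells (95% exact binomial interval 72.8 to 77), 72.1% in KD cells (63.3 to 79.9), 66.7% in KO cells (59.6 to 73.2), 77.5% in control EVs (73.3 to 81.4) and 79.1% in KO EVs (75.7 to 82.3). These intervals cover counting error only, since no molecular identifiers are recorded. MIR26A2 gave most of the miR-26a passenger counts wherever these were seen.

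**Figure D1:**
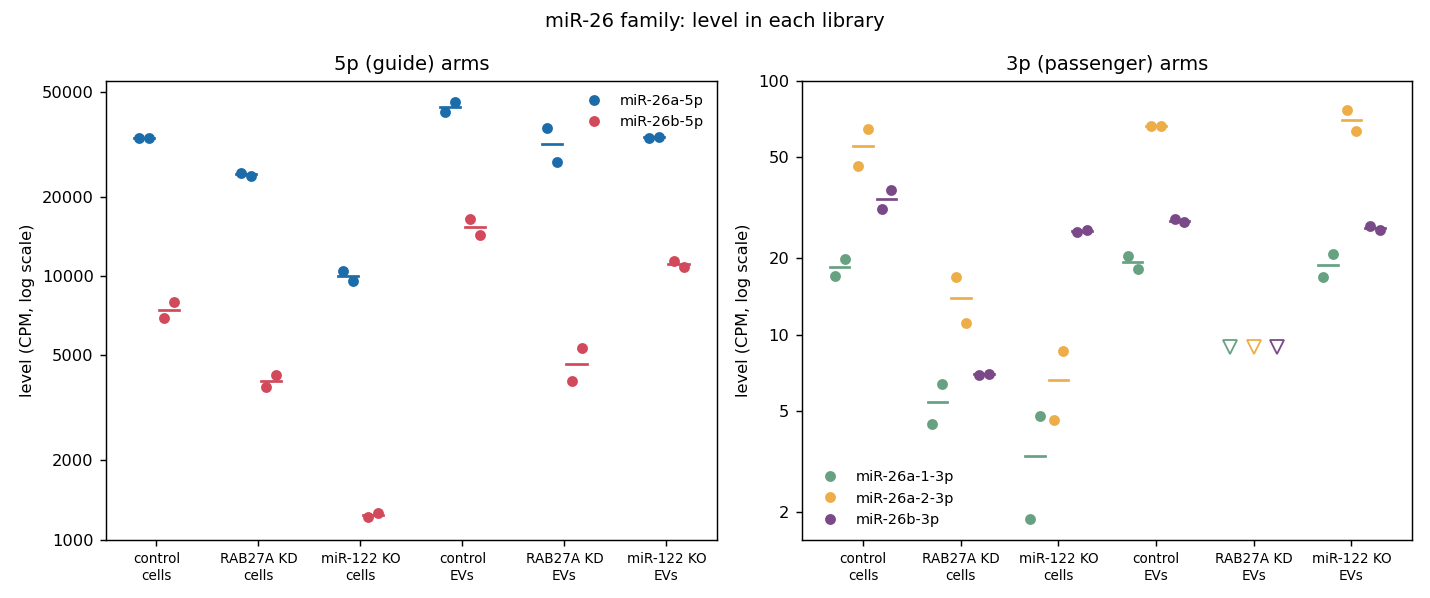
Level of each family member in CPM (log scale) by group, with 1 point per library, a line at the mean of 2 libraries, and open triangles at 8.95 CPM (3 counts over the group) where no count was seen. The guides (left) are lowest in KO cells, and the passengers (right) were not seen in KD EVs.

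In cells, RAB27A knockdown was set against the empty vector. All 5 members were lower in the knockdown cells by edgeR's quasi-likelihood test, with fold changes of 1.36 and 1.84 for the guides and of 3.38 to 4.84 for the passengers. All 5 members passed the filter on low counts in the fits reported as main values here: on the 6 cell libraries, the 6 EV libraries and all 12. Of the 613 miRNAs tested in cells, 53.8% were called, 24.3% higher and 29.5% lower. miR-26a-5p fell by 0.45 on the log2 scale (SE 0.12, adjusted p = 0.00404) and miR-26b-5p fell by 0.88 (SE 0.12, adjusted p = 2.35e-06). The libraries of the 2 groups did not overlap for any member, but how many of all 613 miRNAs did not overlap was not counted. miR-26b-3p, at 6.96 and 7.01 CPM against 31.2 and 37.1, fell by 2.28 (SE 0.24, adjusted p = 7.84e-08). miR-26a-2-3p fell by 1.98 (SE 0.25, adjusted p = 1.29e-06), from 46.1 and 64.9 CPM to 16.8 and 11.1, and miR-26a-1-3p fell by 1.76 (SE 0.32, adjusted p = 1.155e-04), to 4.43 and 6.37 CPM. The members' median was −1.76 and that of all tested miRNAs −0.11.

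The call of miR-26a-5p in knockdown cells was lost without control cell replicate 2 (log2 fold change −0.39, adjusted p = 0.166), without KD cell replicate 1 (−0.46, adjusted p = 0.229) and without KD cell replicate 2 (−0.40, adjusted p = 0.139). Without the filter on low counts its value was −0.67. With both guides summed as 1 feature, the change was −0.51 (adjusted p = 0.00176).

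In the cells with the miR-122 knockout, compared with the same control cells, 4 of the 5 members were lower. Of the 613 miRNAs tested, 62.3% were called, 27.7% higher and 34.6% lower. miR-26a-5p fell by 1.39 (SE 0.12, adjusted p = 6.52e-09), a 2.62-fold difference, and miR-26b-5p fell by 2.24 (SE 0.12, adjusted p = 3.325e-12), a 4.72-fold difference. The passengers of miR-26a followed. miR-26a-2-3p fell by 2.75 (SE 0.24, adjusted p = 5.325e-09), to 4.62 and 8.64 CPM, and miR-26a-1-3p fell by 2.16 (SE 0.28, adjusted p = 1.46e-06), to 1.87 and 4.78 CPM. miR-26b-3p was the exception, at 25.3 and 25.8 CPM against 31.2 and 37.1, with a log2 fold change of −0.08 (SE 0.17, adjusted p = 0.71). Scaled by total counts rather than by TMM factors (trimmed mean of M values, edgeR's default), it passed, at −0.42 (adjusted p = 0.0498). That scaling moved the median of all miRNAs in this comparison by −0.335.

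In the knockout cells the fold changes moved with GC content over all miRNAs. Across the 535 tested miRNAs with a sequence, which share the same libraries, Spearman's rho between log2 fold change and the GC content of the mature miRNA was 0.449, against 0.00719 for the knockdown cells. The 95 miRNAs with a GC content from 30% to under 40% had a median log2 fold change of −1.29, and the 153 from 40% to under 50% one of −0.32. miR-26a-2-3p has 31.8% GC and miR-26b-5p 33.3%. miR-26a-5p has 40.9%, miR-26a-1-3p 45.5% and miR-26b-3p, the member that did not pass, 47.6%. A correction for this trend, added after the data were seen, kept all 4 calls but brought miR-26a-5p to −0.80 (adjusted p = 3.87e-04), miR-26b-5p to −0.91 (adjusted p = 4.05e-05) and miR-26a-2-3p to −1.27 (adjusted p = 6.21e-04). miR-26a-1-3p stood at −1.97 and miR-26b-3p at −0.03 with it.

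**Figure D2:**
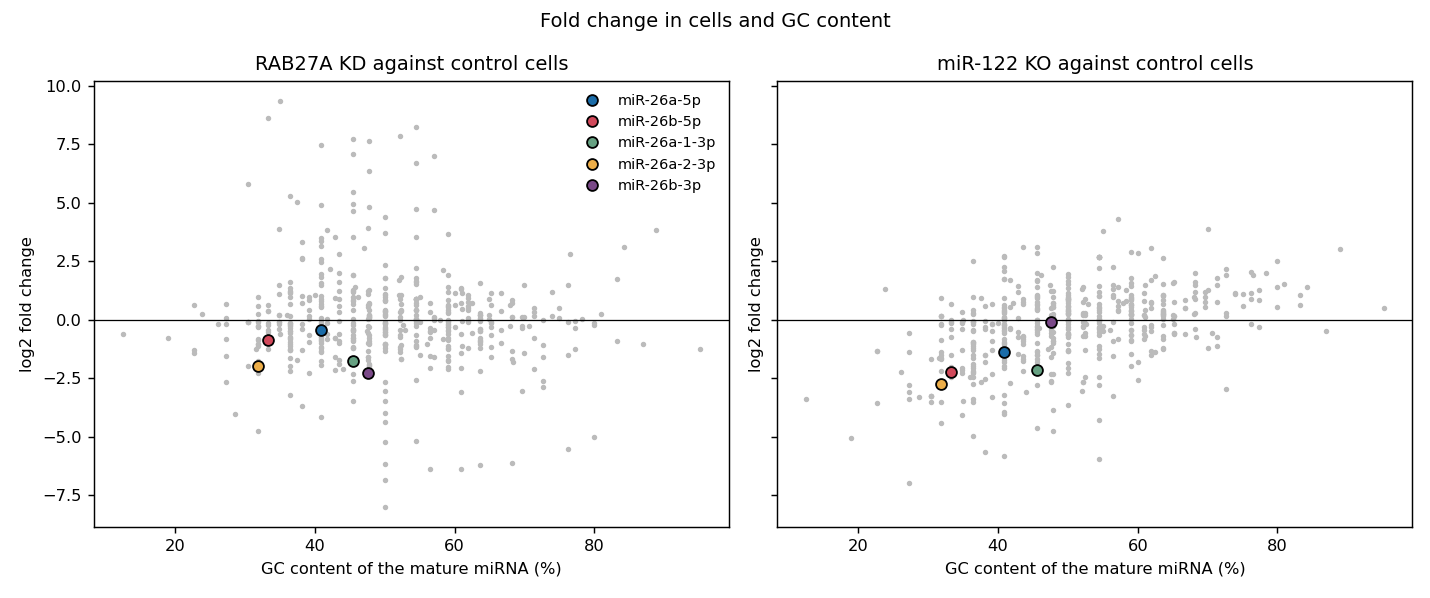
Log2 fold change against the control cells plotted over the GC content (%) of each mature miRNA for the knockdown (left) and knockout (right) cells, with 1 grey point per tested miRNA and the family members in colour. In the knockout cells low-GC miRNAs lie lower (Spearman's rho 0.449), while the knockdown cells show no such slope (0.00719).

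EVs of the knockdown and control lines were compared next. Both guides were called lower in knockdown EVs, and the 3 passengers had no count there. Of the 488 miRNAs tested in EVs, 46.3% were called, 18.9% higher and 27.5% lower. miR-26b-5p fell by 1.84 (SE 0.14, adjusted p = 2.78e-07), a 3.59-fold difference. miR-26a-5p fell by 0.58 (SE 0.13, adjusted p = 0.00238), with 36318 and 27124 CPM against 42035 and 45822. Neither guide overlapped between the groups, but how many of all 488 miRNAs did not overlap was not counted. The value of miR-26a-5p was −0.90 without KD EV replicate 1 and −0.88 without the filter. With the guides summed the change was −0.83 (adjusted p = 2.96e-05).

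For the passengers, which passed the filter through the other EV groups, the knockdown EVs give bounds and no test. Control EVs held 158 and 173 counts of miR-26a-2-3p, 68 and 72 of miR-26b-3p and 49 and 47 of miR-26a-1-3p. At those levels the KD EV libraries would have held 22.3, 9.41 and 6.45 counts, and they held 0. The differences are at least 7.42-fold, 3.14-fold and 2.15-fold lower, from counting error alone.

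The knockout EVs were compared with the same control EVs. Of the 5 members, 1 was called higher and none lower, where 41.2% of the 488 miRNAs were called, 18.9% higher and 22.3% lower. miR-26a-5p had a log2 fold change of −0.01 (SE 0.13, adjusted p = 0.968) and miR-26b-5p one of −0.10 (SE 0.13, adjusted p = 0.62). In CPM both guides lay below the control EVs without overlap, a separation that was not counted over all 488 miRNAs. When scaled by total counts both were called lower, at −0.38 (adjusted p = 0.0224) and −0.47 (adjusted p = 0.00874). That scaling moved the median of all miRNAs by −0.376, and the guides moved by about as much. Neither miR-26b-3p nor miR-26a-1-3p passed. miR-26b-3p held 26.9 and 25.9 CPM against 28.5 and 27.7 (0.29, SE 0.19, adjusted p = 0.251), and miR-26a-1-3p held 16.8 and 20.8 CPM against 20.5 and 18.1 (0.33, SE 0.23, adjusted p = 0.28). miR-26a-2-3p, at 76.7 and 63.5 CPM against 66.2 and 66.6, was called higher (0.46, SE 0.16, adjusted p = 0.0374) although the groups overlapped.

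That call for miR-26a-2-3p depended on the setting. It was lost with RLE factors (adjusted p = 0.0917), total counts (0.08, adjusted p = 0.694), no filter (adjusted p = 0.114), DESeq2 (adjusted p = 0.57), the 4 libraries alone (adjusted p = 0.0555), and without control EV replicate 1 (0.30, adjusted p = 0.312), control EV replicate 2 (0.35, adjusted p = 0.26) or KO EV replicate 1 (0.29, adjusted p = 0.304).

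The next comparisons set the EVs of each line against the cells that made them, in a fit of all 12 libraries on 574 miRNAs. In the control line miR-26b-5p was higher in EVs, by 0.91 (SE 0.12, adjusted p = 4.22e-09), and no other member passed. Of all miRNAs, 53.7% were called there, 30.8% higher and 22.8% lower. miR-26a-5p stood at 0.25 (SE 0.12, adjusted p = 0.0704), although its 42035 and 45822 CPM in EVs lay above the 33492 and 33430 in cells. It passed with RLE factors (0.30, adjusted p = 0.0458), with total counts (0.39, adjusted p = 0.00541) and in a fit on the 4 libraries alone (0.26, adjusted p = 6.22e-04). Without the filter it turned to −0.12 (adjusted p = 0.698), and with the GC correction it stood at 0.07 (adjusted p = 0.694). The passengers lay between −0.42 (miR-26b-3p, SE 0.20, adjusted p = 0.0694) and 0.12 (miR-26a-2-3p, SE 0.19, adjusted p = 0.622). miR-26b-3p passed without the filter (−0.79), on the 4 libraries alone (−0.42) and with the GC correction (−0.59). Without the filter miR-26b-5p stood at 0.54.

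In the knockdown line neither guide was called different between EVs and cells: miR-26a-5p at −0.09 (SE 0.12, adjusted p = 0.697) and miR-26b-5p at −0.26 (SE 0.12, adjusted p = 0.154). The 2 KD EV libraries disagreed and each decided a call. Without replicate 1, miR-26a-5p stood at −0.51 (adjusted p = 0.0063), and without replicate 2, miR-26b-5p stood at −0.65 (adjusted p = 9.10e-04). miR-26b-5p also passed without KD cell replicate 1 (−0.51, adjusted p = 0.0175). With total counts, which moved the median of all miRNAs by 0.474, miR-26a-5p turned to 0.39 (adjusted p = 0.0143). Of all miRNAs, 19.3% were called in this line, 7.32% higher and 12% lower. miR-26a-2-3p, at 16.8 and 11.1 CPM in the cells and 0 counts in the EVs, was at least 1.56-fold lower in EVs, a bound from 4.68 counts expected at the cells' level. miR-26a-1-3p and miR-26b-3p stood below 8.95 CPM in the knockdown cells already, so a loss in EVs was not detectable at this depth.

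In the knockout line 4 members were higher in EVs than in cells, where 59.1% of all miRNAs were called, 33.3% higher and 25.8% lower. miR-26b-5p held 11380 and 10816 CPM in EVs against 1224 and 1260 in cells, a log2 fold change of 2.95 (7.74-fold, SE 0.13, adjusted p = 6.62e-26). miR-26a-5p rose by 1.54 (2.91-fold, SE 0.12, adjusted p = 6.48e-16). miR-26a-2-3p rose by 3.21 (SE 0.22) and miR-26a-1-3p by 2.30 (SE 0.29, adjusted p = 2.05e-09), while miR-26b-3p stood at −0.16 (SE 0.19, adjusted p = 0.511). Fold changes here also moved with GC content, with the opposite sign (Spearman's rho −0.372 across 506 miRNAs). KO EVs against control EVs gave 0.171 across 428. With the GC correction miR-26a-5p stood at 0.71 (adjusted p = 1.86e-05), miR-26b-5p at 1.49 (adjusted p = 3.83e-14) and miR-26a-2-3p at 1.63 (adjusted p = 2.37e-08), and miR-26b-3p passed at −0.46 (adjusted p = 0.0464).

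**Figure D3:**
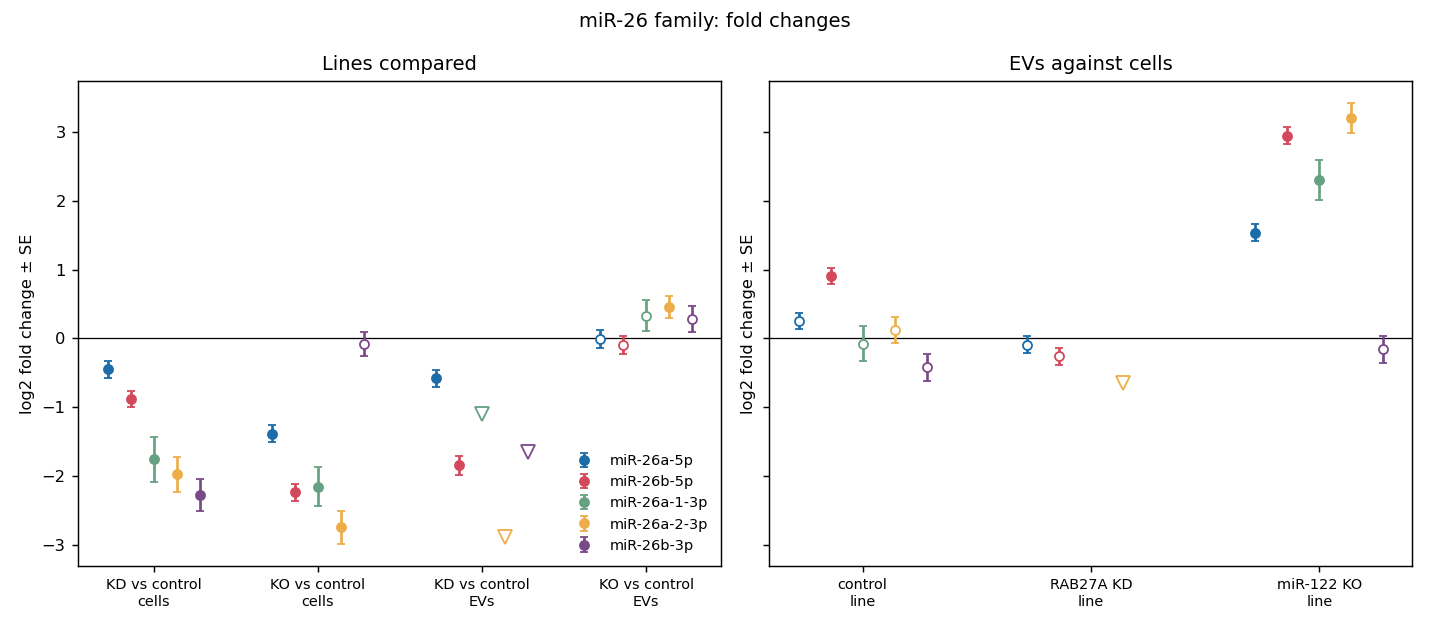
Log2 fold changes ± SE of the 5 members between lines (left) and between EVs and cells of each line (right), with filled points past an adjusted p of 0.05, open points not past it, and open triangles at the bound where KD EVs had no count (no symbol where no bound can be given). The guides lie low in KO cells and high in KO EVs against KO cells.

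Whether the difference between EVs and cells itself changed with the line was tested by interaction terms. For the knockout line the term was positive for 4 members, where 48.3% of the 574 miRNAs were called, 24.9% positive and 23.3% negative: miR-26a-5p at 1.29 (SE 0.17, adjusted p = 7.13e-09), miR-26b-5p at 2.04 (SE 0.17, adjusted p = 6.26e-15), miR-26a-1-3p at 2.38 (SE 0.39) and miR-26a-2-3p at 3.085 (SE 0.29). With the GC correction these were 0.64 (adjusted p = 0.00567), 0.71 (adjusted p = 6.96e-04), 2.11 and 1.61 and remained past the threshold. miR-26b-3p stood at 0.26 (SE 0.28, adjusted p = 0.509). For the knockdown line the term was negative for miR-26b-5p, at −1.17 (SE 0.17, adjusted p = 3.3e-07), where 18.6% of miRNAs were called, 4.36% positive and 14.3% negative. The passengers had no count in KD EVs, so their fitted terms measure no size and are not read here. The fitted value of miR-26a-2-3p is listed only among the flagged results. miR-26a-5p did not pass, at −0.34 (SE 0.17, adjusted p = 0.163). It passed on the 8 libraries of both lines alone (−0.51, adjusted p = 0.00127), without KD EV replicate 1 (−0.59, adjusted p = 0.0147) and with the guides summed (−0.52, adjusted p = 0.0134). With total counts it stood at −0.0074 (adjusted p = 0.9997) and without the filter at −0.0035 (adjusted p = 0.9998).

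A ratio within a library does not depend on scaling. There were 4.83 and 4.21 counts of miR-26a-5p per count of miR-26b-5p in control cells, 6.46 and 5.71 in KD cells and 8.54 and 7.59 in KO cells. In EVs the ratios were 2.55 and 3.21 in the control line, 2.95 and 3.13 in the KO line, and 9.1 and 5.1 in the KD line, where 657 and 906 counts of miR-26b-5p gave 95% exact binomial intervals of 8.4 to 9.88 and 4.75 to 5.48. Ligation can favour 1 sequence over another, so the ratio is compared between libraries and is no molar ratio. The guides also differ in GC content, with 40.9% in miR-26a-5p and 33.3% in miR-26b-5p. In KO cells against control cells they stood at −1.39 and −2.24, but at −0.80 and −0.91 with the GC correction. Their knockout interaction terms were 1.29 and 2.04, and 0.64 and 0.71 with it. The part of the GC trend in the ratio was not tested. The EV ratio was lower than the cell ratio in the control line (log2 difference −0.66) and the KO line (−1.41), and 0.165 higher in the KD line. Over all 12 libraries the difference was −0.63 (exact two-sided permutation test within lines, p = 0.0648, smallest possible p = 0.00926). Leaving out each library in turn gave −0.88 to −0.51, with −0.88 without KD EV replicate 1.

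The share of the passengers was compared in the same way, as a description. The miR-26a passengers made up 18.8 and 25.3 of 10000 miR-26a counts in control cells, 8.63 and 7.29 in KD cells and 6.21 and 14 in KO cells. In EVs they made up 20.6 and 18.5 in the control line and 27.8 and 24.9 in the KO line. The KD EVs held 0 of 10601 counts, and the pooled KD cells held 7.97 of 10000. Taken as 3 counts, that 0 allows up to 2.83 of 10000, and its exact 95% upper limit is 3.48. For single libraries the exact 95% intervals of the KD cells began at 6.69 and 5.49. The upper limit of KD EV replicate 1, 6.17, reached only the interval of KD cell replicate 2. That of KD EV replicate 2, 7.98, reached both. All of these limits cover counting error only, while replicates differed by more.

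For miR-26b the KO cells stood apart. Its passenger made up 202 and 201 of 10000 counts there, against 44.9 and 46.6 in control cells and 18.3 and 16.6 in KD cells. In EVs the values were 17.3 and 19.4 in the control line and 23.6 and 23.9 in the KO line. The KD EVs held 0 of 1563 counts. Taken as 3 counts, that allows up to 19.2 of 10000, above the 17.4 of KD cells, so a difference was not detectable at this depth. The high share in KO cells came with a low guide (1224 and 1260 CPM) and a passenger close to its control level. The arms also differ in GC content, with 33.3% in the guide and 47.6% in the passenger, and the part of the GC trend in the share was not tested. With the GC correction the arms stood at −0.91 and −0.03 against control cells.

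**Figure D4:**
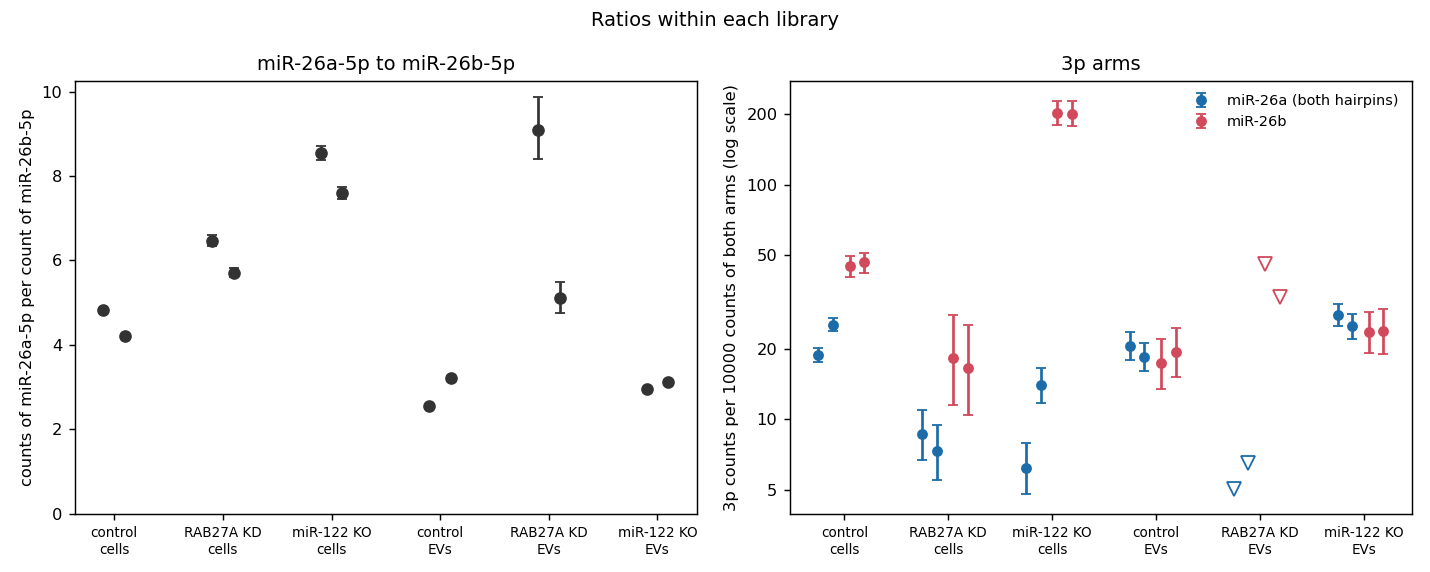
Counts of miR-26a-5p per count of miR-26b-5p (left) and counts of 3p arms per 10000 counts of both arms (right, log scale) in each library, with 95% exact binomial intervals and open triangles at 3 counts where no 3p count was seen. The miR-26b passenger share is highest in KO cells, near 202, and the guide ratio is lowest in control and KO EVs.

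The miRNAs whose levels were most like those of the guides were found among 636 others with at least 50 counts in all, by Pearson's r of log2(CPM + 1) over the 12 libraries, given without a test because the libraries share depth and groups. For miR-26a-5p they were let-7f-5p (0.964), let-7f-1-3p (0.964), miR-30e-3p (0.96), miR-374b-5p (0.956) and miR-374a-5p (0.955). For miR-26b-5p they were miR-16-2-3p (0.98), miR-625-3p (0.975), miR-374b-5p (0.968), miR-421 (0.968) and miR-92b-3p (0.967). let-7f-5p, for example, held 4344 and 5289 CPM in KO cells against 27360 and 28350 in control cells. The guides correlated with each other at 0.926. Among the passengers r with miR-26b-5p was 0.607 for miR-26a-1-3p and 0.605 for miR-26a-2-3p but 0.194 for miR-26b-3p, its own other arm. These r values include the KD EV libraries, where the passengers had no count and 3 counts equal 18.2 and 17.6 CPM. The part of that depth limit in r was not tested.

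Other miRNAs known to be lowered by MYC were read beside the family. In KD cells 11 of 18 tested were lower and 3 higher, with a median of −0.38 against −0.11 over all miRNAs, of which 29.5% were lower and 24.3% higher. Among the most abundant of them, let-7f-5p changed by −0.31 (SE 0.11, adjusted p = 0.0167) and miR-29a-3p, a repressor of collagens, by −0.54 (SE 0.11, adjusted p = 2.23e-04), while miR-146a-5p, which dampens innate immune signalling, was higher by 3.50. In KO cells 7 were lower and 3 higher (median −0.06 against −0.08), where 34.6% and 27.7% of all miRNAs were. Of the 3 most abundant there, let-7f-5p stood at −2.20 (SE 0.11, adjusted p = 8.14e-13) and miR-29a-3p at −0.30 (SE 0.11, adjusted p = 0.0199). The third, miR-146a-5p, was higher, at 2.69 (SE 0.12, adjusted p = 7.45e-14). In KD EVs 10 of 19 were lower and 2 higher (median −0.56, or −0.44 with members at 0 set to their limit, against −0.29), where 27.5% and 18.9% of all miRNAs were. In KO EVs 3 were lower and 7 higher (median −0.04 against 0.03), where 22.3% and 18.9% were.

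miRNAs of the miR-17-92 cluster, which MYC induces, were read in the same way. In KD cells, where 24.3% of all miRNAs were higher and 29.5% lower, 1 of 6 was higher and none lower (median 0.11 against −0.11). In KD EVs, where these shares were 18.9% and 27.5%, 5 were higher and none lower (median 0.86 against −0.29), among them miR-20a-5p at 0.81 (SE 0.11, adjusted p = 6.92e-05). The most abundant, miR-92a-3p, did not pass there, at −0.19 (SE 0.11, adjusted p = 0.164). In KO cells, with 34.6% of all miRNAs lower and 27.7% higher, 5 were lower and 1 higher (median −1.02 against −0.08), with miR-20a-5p at −3.31 and miR-19b-3p, the member that rose, at 0.67 (SE 0.13, adjusted p = 1.356e-04). In KO EVs, with 18.9% of all miRNAs higher and 22.3% lower, 1 of 6 was higher and none lower (median −0.21 against 0.03).

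Of other miRNAs known to repress EZH2, 6 were tested in cells and 7 in EVs, and let-7a-5p among them is also in the first list. In KD cells 3 were lower and 2 higher (median −0.25 against −0.11 over all miRNAs, of which 29.5% were lower and 24.3% higher). In KO cells none was lower and 3 were higher (median 0.51 against −0.08, with 34.6% of all miRNAs lower and 27.7% higher), among them miR-101-3p, best known for this target, at 0.65 (SE 0.11, adjusted p = 5.12e-05), and let-7b-5p at 1.71 (SE 0.12, adjusted p = 1.53e-10). The most abundant, let-7a-5p, did not pass there, at −0.08 (SE 0.11, adjusted p = 0.534). In KD EVs 4 were lower and 2 higher (median −0.56 against −0.29, with 27.5% and 18.9% of all miRNAs). In KO EVs 3 were lower and 1 higher (median −0.09 against 0.03, with 22.3% and 18.9% of all miRNAs). let-7a-5p, the most abundant, was higher, at 0.81 (SE 0.14, adjusted p = 4.32e-04), and miR-101-3p lower, at −0.52 (SE 0.11, adjusted p = 0.00215). let-7b-5p did not pass, at 0.31 (SE 0.12, adjusted p = 0.055).

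Between EVs and cells the lists were counted in the same way. In the control line, where 30.8% of all miRNAs were higher in EVs and 22.8% lower, 9 of 19 miRNAs lowered by MYC were higher in EVs and 4 lower (median 0.29 against 0.02 over all miRNAs), none of the 6 induced by MYC was higher and 5 were lower (median −0.70), and 5 of the 7 that repress EZH2 were higher and 1 lower (median 0.50). In the knockout line, where 33.3% of all miRNAs were higher and 25.8% lower, these counts were 9 higher and 5 lower, 3 higher and 2 lower, and 2 higher and 3 lower (medians 0.25, 0.38 and −0.51 against 0.04). Among those higher in knockout EVs were let-7f-5p, at 2.52 (SE 0.12, adjusted p = 1.75e-24), and let-7a-5p, at 1.31 (SE 0.12, adjusted p = 1.835e-13). The most abundant miRNA lowered by MYC, miR-146a-5p, went the other way, at −1.27 (SE 0.11, adjusted p = 3.12e-14). Of those that repress EZH2, let-7b-5p and miR-101-3p were lower too, the latter at −0.85 (SE 0.12, adjusted p = 1.51e-08). In the knockdown line no miRNA of the 3 lists was higher, and 3, 1 and 0 were lower, where 7.32% and 12% of all miRNAs were called higher and lower.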

How the data were processed

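The authors deposited 1 raw, whole-number count for each mature miRNA and library. The submitters' processing notes name cutadapt, Bowtie and the build hg19. Their versions, the mismatches allowed and how reads with several matches were treated are not stated there. Per the labels' protocols the libraries depended on a 5′ monophosphate and were size-selected.

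Differences were tested in R 4.3.3 with edgeR 4.0.16 (and limma 3.58.1) by quasi-likelihood, using TMM factors, filterByExpr, robust dispersions and Benjamini-Hochberg adjustment over all miRNAs tested at 0.05. Lines were compared on the 6 libraries of a fraction, and EVs with cells on all 12. CPM was computed here from library totals. The SE is the size of the log2 fold change over the square root of the F value. DESeq2 1.42.0 was an alternative. A GC correction, added after the data were seen, used a loess trend per library (span 0.75). The code was tested on simulated counts. Same-numbered replicates did not deviate together (r from −0.0695 to 0.0662). Earlier results of these data were known when members, lists and naming rule were chosen. The rule names all 5 members, up to 3 most abundant miRNAs per list, and the 5 most like each guide. Members of a list named for another reason were chosen after their values were seen.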

Additional observations from a re-analysis of the deposited data

Results flagged for a closer look

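The difference between EVs and cells changed with the line for several members, by the interaction terms of edgeR's quasi-likelihood test. In the knockout line against the control line the terms were 1.29 (1.286) for miR-26a-5p, 2.04 (2.042) for miR-26b-5p, 2.38 (2.377) for miR-26a-1-3p and 3.08 (3.085) for miR-26a-2-3p on the log2 scale. In the knockdown line the term was −1.17 (−1.168) for miR-26b-5p. That of miR-26a-2-3p was fitted at −9.25 (−9.252), a value that depends on the prior count because KD EVs held none, and is no bound. It entered the fit through the groups where it was present, and it did not pass without either KD EV replicate (adjusted p = 0.186 and 0.166). Both lines are set against the same control libraries.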

How the results depend on the processing

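Over 566 values for members and the guide ratio, 511 kept their direction and side of the threshold. Of the rest, 18 lost their call, 18 gained one and 19 changed sign. The 566 include the 3 passengers in comparisons with KD EVs, where counts of 0 fixed their direction in advance. They also include 18 values of the summed guides, entered under each guide with the same value. The 511 are therefore no measure of robustness. Of the 19 sign changes, 1 was past the threshold: with total counts miR-26a-5p stood at 0.3853 between KD EVs and cells. The other 18 were uncalled with either sign. With total counts they were miR-26b-5p between KD EVs and cells (0.2181), miR-26a-1-3p (−0.0439) and miR-26b-3p (−0.0885) in KO EVs, miR-26a-1-3p between control EVs and cells (0.0631) and miR-26b-3p between KO EVs and cells (0.0482). With RLE factors they were miR-26b-3p in KO cells (0.0217) and miR-26a-5p between KD EVs and cells (0.0186), which also turned with DESeq2 (0.0187) and on the groups alone (0.0612). Without the filter miR-26a-5p (−0.1234) and miR-26a-2-3p (−0.2419) turned between control EVs and cells, and with the GC correction miR-26a-5p (0.0230) and miR-26b-5p (0.0176) turned in KO EVs. Leaving out 1 library turned miR-26b-3p in KO cells (0.0632 and 0.0242, over a range from −0.308 to 0.0632), and, between control EVs and cells, miR-26a-1-3p (0.0604 and 0.00577, from −0.2091 to 0.0604) and miR-26a-2-3p (−0.132, from −0.132 to 0.4107). Calls were gained with total counts for miR-26a-5p between control EVs and cells (0.3927) and in KO EVs (−0.3834), as for miR-26b-5p in KO EVs (−0.4705). Between control EVs and cells miR-26a-5p also gained a call with RLE factors (0.2998), the groups compared alone (0.2563) and the guides summed (0.4057), and for the knockdown interaction with the groups alone (−0.5092) and the guides summed (−0.5178). Leaving out 1 library gave −0.4616 to −0.3925 for miR-26a-5p in KD cells, −0.5051 to −0.0601 for it and −0.6454 to −0.2429 for miR-26b-5p between KD EVs and cells, −0.5902 to −0.1365 for the knockdown interaction of miR-26a-5p and −0.8777 to −0.511 for the ratio. Counts of called miRNAs were 196 to 273 in KD cells (330 with all libraries; 196 without KD cell replicate 1 and 218 without replicate 2) and 127 to 189 in KO EVs (201; 127 without control EV replicate 2). The replicate numbers gave no sign of pairing, and with a replicate block no member changed its call; miR-26b-5p in KO cells stood at −2.24 and the calls in KO cells numbered 377 against 382. The share of calls that were higher moved with total counts from 44.5% to 32.4% in KO cells, from 45.8% to 19.2% in KO EVs, from 37.8% to 75.6% between KD EVs and cells and from 23.4% to 52.6% for the knockdown interaction. It moved with DESeq2 from 45.8% to 32.9% in KO EVs, from 37.8% to 52.4% between KD EVs and cells and from 23.4% to 33.9% for the knockdown interaction, and with the GC correction from 23.4% to 39.8% there and from 56.3% to 42.3% between KO EVs and cells. Scaling by total counts moved the median of all miRNAs by 0.115 in KD EVs, by 0.139, 0.474 and 0.202 between EVs and cells of the control, KD and KO lines and by 0.335 for the knockdown interaction. The cause of these shifts was not tested. The fit on the groups alone gave no value for miR-26a-1-3p between KD EVs and cells, where the filter removed it. Depth limits the passengers in KD EVs, where 3 counts equal 8.95 CPM.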
